A study of Drosophila melanogaster with 3 samples.

Results

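The genes described here are the small nuclear RNA (snRNA) genes of Drosophila melanogaster, read from chromatin immunoprecipitation of the protein CG1647. They are the genes with the biotype snRNA in the Ensembl annotation of the release 6 (dm6) assembly on the 6 large chromosome arms, and there were 32 of them among 18164 annotated genes. The annotation names 12 classes. There were 7 U5, 6 U2, 5 U1, 3 U4, 3 U6 and 2 7SK genes, and 1 gene each of LU, U11, U12, U4atac, U6atac and U7. Gene names are given without the prefix "snRNA:" that the annotation uses.

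The study immunoprecipitated chromatin from whole embryos of 0 to 24 h, with males and females pooled, and sequenced the recovered DNA (ChIP-seq). The embryos came from 1 transgenic line that carries CG1647 with GFP at its C-terminus, and an antibody against GFP was used, so the values report the fusion protein and not the untagged one. CG1647 encodes a zinc finger protein. Chromatin was sonicated to fragments of 200 to 800 bp. The design has 1 group of 3 biological replicates and no second condition, and a whole embryo mixes all embryonic tissues and stages.

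snRNAs are short, stable nuclear RNAs that work in particles with proteins. U1 pairs with the 5′ splice site and U2 with the branch point, and U4, U5 and U6 join them as a tri-snRNP, with U6 forming part of the catalytic centre. U11, U12, U4atac and U6atac do the same work for the minor class of introns, U7 guides the 3′ processing of histone mRNAs, and 7SK RNA holds the elongation kinase P-TEFb inactive. Most fly snRNA genes are transcribed by RNA polymerase II, and U6, U6atac and 7SK by RNA polymerase III. Both kinds of promoter carry the proximal sequence element A (PSEA), the site bound by the complex SNAPc, and the polymerase III kind adds a TATA box.

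The 5′ flanks below are shown because the genes share the PSEA while their other upstream bases differ to a varying degree. Among U2 genes, pairs shared 56 to 90 of the 100 bases before the 5′ end, and among U1 genes 63 to 74. Some copies are thus told apart there more easily than others. Each holds the 100 bases before the 5′ end and the first 10 transcribed bases, 5′ to 3′ on the gene's own strand, in dm6 coordinates and from the RefSeq genome of that assembly. Capitals mark the match to the PSEA core word AATTCCCAA with up to 2 mismatches. The lines give the 8 genes with a peak in the authors' final list, plus U2:34ABc, U1:95Cb and 7SKb, which are other copies without one.
U2:34ABb, chr2L:13215739-13215848, plus strand: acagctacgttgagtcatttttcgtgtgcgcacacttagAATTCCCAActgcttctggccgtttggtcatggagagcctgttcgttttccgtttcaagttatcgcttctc
U2:34ABc, chr2L:13244552-13244661, minus strand: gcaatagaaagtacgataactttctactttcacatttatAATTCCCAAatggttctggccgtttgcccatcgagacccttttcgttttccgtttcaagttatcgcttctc
U1:95Ca, chr3R:23859621-23859730, minus strand: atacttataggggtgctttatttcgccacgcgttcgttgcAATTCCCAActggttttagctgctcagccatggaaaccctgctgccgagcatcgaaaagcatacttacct
U1:95Cb, chr3R:23827770-23827879, plus strand: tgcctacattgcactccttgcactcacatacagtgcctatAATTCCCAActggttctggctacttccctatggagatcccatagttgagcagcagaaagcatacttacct
U1:21D, chr2L:901645-901754, minus strand: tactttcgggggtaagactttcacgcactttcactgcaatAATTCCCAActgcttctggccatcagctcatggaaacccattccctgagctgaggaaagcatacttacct
U4:39B, chr2L:21215169-21215278, minus strand: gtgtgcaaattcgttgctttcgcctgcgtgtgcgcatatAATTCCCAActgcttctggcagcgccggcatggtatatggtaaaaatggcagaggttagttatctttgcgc
U5:63BC, chr3L:3090701-3090810, plus strand: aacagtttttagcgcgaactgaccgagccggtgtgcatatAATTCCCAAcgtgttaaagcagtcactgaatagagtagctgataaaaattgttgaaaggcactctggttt
U6:96Ac, chr3R:24557115-24557224, plus strand: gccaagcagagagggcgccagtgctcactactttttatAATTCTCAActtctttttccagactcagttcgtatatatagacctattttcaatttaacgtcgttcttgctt
U6:96Ab, chr3R:24556592-24556701, plus strand: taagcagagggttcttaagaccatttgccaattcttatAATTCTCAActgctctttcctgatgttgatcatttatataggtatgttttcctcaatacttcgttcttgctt
7SKa, chr3R:7474987-7475096, minus strand: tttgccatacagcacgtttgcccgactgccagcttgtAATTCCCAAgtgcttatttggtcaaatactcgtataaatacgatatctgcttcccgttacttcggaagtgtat
7SKb, chr3R:23432769-23432878, plus strand: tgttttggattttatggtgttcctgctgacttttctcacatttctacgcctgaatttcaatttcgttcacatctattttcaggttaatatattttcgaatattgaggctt

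The exact PSEA core word lay within the 100 bases before the 5′ end, on the gene's strand, in 22 of the 32 genes, with its first base 57 to 63 bases before the 5′ end. A further 9 genes had a match with 1 mismatch, beginning 59 to 66 bases before it. 7SKb was the exception, with a best match of 3 mismatches, and no capitals appear in its line. Searched on both strands from 250 bases before to 50 bases after the 5′ end, the exact word was in 23 of 32 snRNA promoters (71.9%), against 105 of 17819 other promoters of that length (0.589%). It was in 6 of the 8 snRNA genes with a final peak, and the other two were U6:96Ab and U6:96Ac, whose element reads AATTCTCAA. With 1 mismatch allowed, 31 of 32 snRNA promoters held a match, against 11.7% of the others.

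Words of other promoter elements were also searched on both strands of the same window. TATAAA was in 15 of the 32 snRNA promoters (46.9%) and in 44% of the other promoters. Within the 100 bases before the 5′ end it was in 5 of 32 (15.6%) and in 19.1% of the others, so the order of the shares turned with the window. In the 7SKa flank above it begins 31 bases before the 5′ end, and in U6atac 30 bases before. No other snRNA gene had it on the gene's own strand in those 100 bases, so the remaining matches are on the opposite strand. The printed U6 flanks read TATATAG, which the word TATAAA does not match, so these counts cover 1 spelling of the TATA box only. The DNA replication-related element TATCGATA was in 0 snRNA promoters and in 7.52% of the others, the motif 1 core GGTCACAC in 0 and 6.13%, and the repeat GAGAGAG in 0 and 5.5%. The searched words do not contain one another. These counts describe the letters of the reference sequence and say nothing of occupancy.

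Peaks were read from 5 deposited lists on dm6. The list that passed the authors' test of reproducibility (irreproducible discovery rate, IDR), called retained here, held 3123 peaks. They are the 3123 peaks of highest signal among 19204 candidates from the pooled replicates. The replicate lists held 30000, 17977 and 30000 candidates for replicates 1, 2 and 3, and candidates include background. Signal is the value that the authors' peak caller gave each peak, compared here within a list only, and rank 1 is the highest signal in a list. A summit is the position of greatest enrichment in a peak, and a gene was counted when a summit lay in it or within 500 bp of it. The median retained peak was 390 bp wide, more than the length of most snRNA genes.

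A retained summit lay within 500 bp of 8 of the 32 snRNA genes, which is 25% (exact Clopper-Pearson 95% interval 11.5% to 43.4%). Among protein-coding genes, 2266 of 13945 had one within 500 bp of a transcription start site (TSS), which is 16.2%. The interval for the snRNA genes contains that background. The tRNA genes had 10 of 290 (3.45%) and the snoRNA genes 11 of 269 (4.09%), counted from the whole gene like the snRNA genes, and both shares lie below the snRNA interval. Over all 18132 other genes at the TSS it was 13.5%. Neighbouring genes are not independent, and joining snRNA genes within 1000 bp gave 26 loci, of which 7 (26.9%) had a retained summit. Intervals cover counting error over genes only, and the sequencing depth is unknown because the lists used here hold peaks and not reads.

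The 8 genes fell in 6 classes. They were 2 of 5 U1 genes (U1:21D and U1:95Ca), 1 of 6 U2 genes (U2:34ABb), 1 of 3 U4 genes (U4:39B), 1 of 7 U5 genes (U5:63BC), 2 of 3 U6 genes (U6:96Ab and U6:96Ac) and 1 of 2 7SK genes (7SKa). Every RNA of the major spliceosome was thus represented, with 7 of its 24 genes (29.2%). The minor spliceosome RNAs had 0 of 4 genes, which allows a share of up to 60.2%. By polymerase, 3 of 6 polymerase III genes had a retained summit (50%), against 5 of 25 polymerase II genes (20%). The polymerase III interval of 11.8% to 88.2% contains the polymerase II share, and these genes are 3 classes at 4 loci. U6:96Ab and U6:96Ac were counted from the same summit, so the 3 polymerase III genes are not independent.

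**Figure D1:**
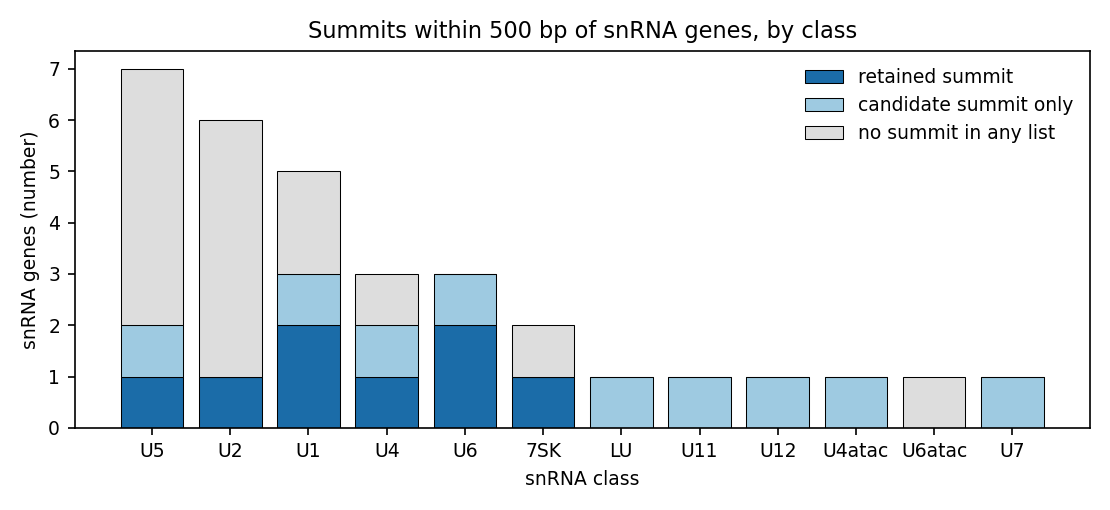
Number of snRNA genes per class, split by the best list in which a summit lay within 500 bp of the gene: the retained list, a pooled or replicate candidate list only, or none. The 6 classes with several genes hold all 8 genes with a retained summit, and the 6 classes with 1 gene hold none.

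In all 6 classes with a retained summit the gene has further copies, 26 genes together with 8 retained (30.8%). The 6 genes that are alone in their class had 0, which allows a share of up to 45.9%, and 5 of those 6 had a summit in a candidate list. The nearest retained summit was 3421 bp from U4atac, 3464 bp from U11, 5498 bp from U6atac, 5781 bp from U12, 6820 bp from LU and 22618 bp from U7. The interval for 6 genes thus contains the share of the classes with several copies.

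The signal of retained peaks ran from 126.2 to 2899 with a median of 189. Of the 7 summits behind the 8 genes, 4 were above that median, and they ran from the 4.24 to the 74 percentile of the list, so none was among its strongest. The sequence around 5 of them is printed next, because the summit lay within the transcript in some genes, at the 5′ end in U4:39B and upstream of the gene in U6:96Ac. Each is 201 bases centred on the retained summit, on the gene's strand in dm6 coordinates, and capitals mark transcribed snRNA bases.
U2:34ABb, chr2L:13215837-13216037, plus strand: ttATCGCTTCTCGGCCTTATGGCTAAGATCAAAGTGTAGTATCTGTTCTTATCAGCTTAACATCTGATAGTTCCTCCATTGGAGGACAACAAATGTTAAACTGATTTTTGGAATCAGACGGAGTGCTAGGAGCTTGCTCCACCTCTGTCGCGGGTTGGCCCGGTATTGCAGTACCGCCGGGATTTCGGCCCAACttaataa
U1:95Ca, chr3R:23859452-23859652, minus strand: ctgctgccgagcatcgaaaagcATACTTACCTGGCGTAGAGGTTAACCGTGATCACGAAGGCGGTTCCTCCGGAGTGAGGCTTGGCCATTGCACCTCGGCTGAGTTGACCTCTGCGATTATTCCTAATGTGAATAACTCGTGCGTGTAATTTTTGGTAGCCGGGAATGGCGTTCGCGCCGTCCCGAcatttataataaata
7SKa, chr3R:7474672-7474872, minus strand: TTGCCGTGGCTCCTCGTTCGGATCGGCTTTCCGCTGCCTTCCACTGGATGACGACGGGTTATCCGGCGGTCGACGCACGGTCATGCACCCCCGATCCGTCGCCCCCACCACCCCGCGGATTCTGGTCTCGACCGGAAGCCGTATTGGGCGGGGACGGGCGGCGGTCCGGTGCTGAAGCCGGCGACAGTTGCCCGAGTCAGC
U4:39B, chr2L:21215081-21215281, minus strand: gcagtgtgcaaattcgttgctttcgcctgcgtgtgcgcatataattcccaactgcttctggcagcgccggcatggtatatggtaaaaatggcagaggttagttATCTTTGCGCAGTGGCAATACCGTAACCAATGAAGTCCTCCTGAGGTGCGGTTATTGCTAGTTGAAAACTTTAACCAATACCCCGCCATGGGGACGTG
U6:96Ac, chr3R:24557003-24557203, plus strand: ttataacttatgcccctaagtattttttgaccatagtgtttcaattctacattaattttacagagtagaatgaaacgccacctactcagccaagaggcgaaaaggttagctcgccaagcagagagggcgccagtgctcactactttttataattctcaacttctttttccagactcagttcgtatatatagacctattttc

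U2:34ABb (2L, 13215839 to 13216030, plus strand) had the highest of the 7. Its retained peak had a signal of 265.7 and rank 812, with the summit 98 bases downstream of the 5′ end. In replicates 1, 2 and 3 its peak ranked 795, 1163 and 587, with signals of 78.6, 92.4 and 95.8. Their summits were 73, 81 and 69 bases downstream, so all 3 replicates placed it inside the transcript and among their best 3123 peaks, the length of the retained list.

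U1:95Ca (3R, 23859467 to 23859630, minus strand) was close behind, with signal 261.6 and rank 838. Its summit lay 78 bases downstream of the 5′ end, near the middle of the 164-base gene. The replicate ranks were 779, 1362 and 570, at signals of 79.2, 83.5 and 96.9. Their summits lay 82, 78 and 37 bases downstream, again inside the transcript. The nearest protein-coding TSS, that of Pli, was 30500 bp away, the farthest of the 7.

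7SKa (3R, 7474553 to 7474996, minus strand) is the longest of the 8, with 444 bases. Its retained peak had signal 205.2 and rank 1351, and the summit lay 224 bases downstream of the 5′ end. Replicates 1, 2 and 3 gave ranks of 496, 2060 and 3205, signals of 97.2, 64.7 and 43.6, and summits 225, 279 and 222 bases downstream. Replicate 1 ranked it highest of all snRNA genes, and in replicate 3 it fell just past the best 3123. A further pooled candidate, rank 4318, lay 877 bases downstream, beyond the 3′ end, and was seen in all 3 replicates at 876 to 883 bases. The protein-coding TSS of CG1142 lies beyond that end too, 772 bp from the gene, so this candidate cannot be given to 7SKa alone.

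U4:39B (2L, 21215036 to 21215178, minus strand) lies in an intron of Atg18b on the same strand, and is the only one of the 8 genes inside a protein-coding gene. Its retained peak had signal 199.3 and rank 1432, and its summit lay 3 bases upstream of the 5′ end. The replicate ranks were 1009, 2311 and 1451, with signals of 70.4, 60.3 and 64.7. Replicates 1 and 3 placed the summit 4 and 3 bases upstream, and replicate 2 placed it 86 bases downstream.

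U1:21D (2L, 901491 to 901654, minus strand) had signal 161.2 and rank 2078, with the summit 149 bases downstream, close to the 3′ end of the gene. Its replicate ranks were 1275, 3547 and 2535, at signals of 62.8, 44.9 and 49.3. Replicates 1 and 3 had a summit 152 and 156 bases downstream and also one upstream of the 5′ end, while the single replicate 2 summit lay 1 base upstream.

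U5:63BC (3L, 3090801 to 3090923, plus strand) had signal 143.1 and rank 2530, with the summit 6 bases downstream of the 5′ end. The ranks were 2298, 3276 and 2069 in the replicates, at signals of 47.5, 47.5 and 54.5. Nearest summits lay 11, 212 and 38 bases downstream. In replicate 2 the summit was beyond the 3′ end of the 123-base gene.

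The last summit, at position 24557103 of 3R, lies between U6:96Ab and U6:96Ac, which are 107-base genes on the plus strand in a cluster of 3. It was 112 bases upstream of U6:96Ac and 411 bases downstream of the 5′ end of U6:96Ab, so it cannot be given to either gene alone. Its signal was 129.4 and its rank 2991, near the end of the retained list. The replicate ranks were 1757, 7398 and 3764 with signals of 53.8, 28.5 and 40.3, so only replicate 1 had it among its best 3123. The highest-ranked candidates lay 117, 114 and 112 bases upstream of U6:96Ac, the smallest span of the 7. Replicate 3 also had a candidate of rank 5929 inside that gene, 87 bases downstream of its 5′ end.

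**Figure D2:**
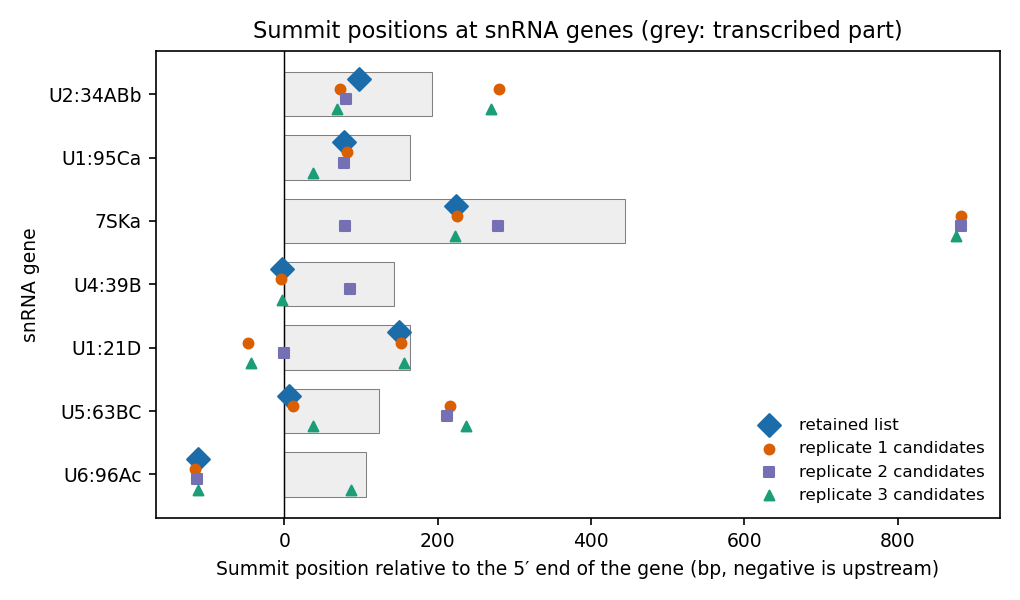
Position of each summit relative to the 5′ end of the nearest snRNA gene, in bp with upstream negative, for the retained list (diamonds) and the candidates of replicates 1, 2 and 3. Grey bars are the transcribed part. Retained summits lie inside the gene in 5 of 7 cases, 3 bases upstream in U4:39B and 112 bases upstream in U6:96Ac.

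Of the 7 retained summits, 5 lay downstream of the 5′ end and inside the snRNA gene, and the median position was 78 bases downstream. Taking in each replicate the candidate nearest to the 5′ end gave medians of 11, 79 and 38 bases, a mean of 42.7 ± 34.2 bases (SD, n = 3). By this measure the summit lay within the transcript in every replicate for U2:34ABb, U1:95Ca and 7SKa (225, 79 and 222 bases downstream in replicates 1, 2 and 3), and upstream in every replicate for U1:21D, at positions -47, -1 and -43. The replicates fell on different sides of the 5′ end for U4:39B and for U6:96Ac (positions -117, -114 and 87), and on different sides of the 3′ end for U5:63BC. The highest-ranked candidate gave another order, downstream in replicates 1 and 3 for U1:21D and upstream in all 3 for U6:96Ac. Promoter and transcript cannot be told apart by position at these 4 summits. At U2:34ABb and U1:95Ca the retained peak covered the whole gene and its PSEA, and fragments were 200 to 800 bp. A summit inside the transcript therefore does not separate the 2 there either.

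**Figure D3:**
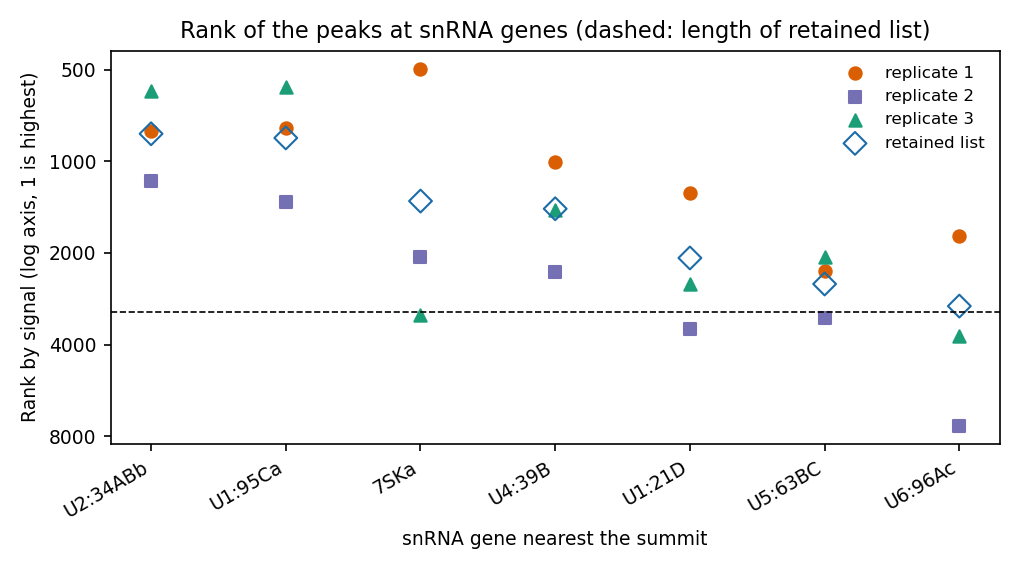
Rank of the peak at each of the 7 retained summits, on a log axis with rank 1 highest, in the retained list (diamonds) and in replicates 1, 2 and 3. The dashed line is the length of the retained list, 3123. U2:34ABb, U1:95Ca and U4:39B lie above it in all replicates, and U6:96Ac only in replicate 1.

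None of the 7 retained summits had a protein-coding TSS within 500 bp (0 of 7, upper limit 41%). Over the whole retained list 1724 of 3123 summits (55.2%) had one, but that list is not a like background, since few snRNA genes lie near such a TSS. Measured from the gene, 1 of the 8 snRNA genes with a retained summit had a protein-coding TSS within 500 bp. So had 2 of the 9 with candidates only and 2 of the 15 with none. The nearest protein-coding TSS was 587 bp from the U2:34ABb summit (kek4), 991 bp from the 7SKa summit (CG1142), and 2861 bp (Lsp1beta), 3363 bp (CG8679), 8086 bp (Esyt2) and 8829 bp (PAN3) from those of U1:21D, U4:39B, U6:96Ac and U5:63BC. With a distance of 1000 bp instead, 2 of these genes, U2:34ABb and 7SKa, shared their summit with a protein-coding promoter. Inside a protein-coding gene lay 1 of the 8 snRNA genes with a retained summit, 7 of the 9 with candidates only and 8 of the 15 with none, all of them in introns, and this difference was not tested.

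A further 9 genes had a summit only in a candidate list. U1:82Eb came nearest to the retained list, with a pooled rank of 3817 and signal of 111.7, at 158 bases downstream, and replicate ranks of 2502, 10338 and 5365. U5:35D had pooled ranks of 4493, at 554 bases downstream, and 16422, at 257 bases upstream. The TSS of the protein-coding gene ND-B17 lies 479 bp from the gene U5:35D, and the 2 pooled summits lie on opposite sides of that gene. The summit on the same side as that TSS cannot be given to the snRNA gene alone. U12 had pooled rank 6653, at 149 bases downstream, and was found in all replicates at ranks 10027, 8694 and 5243. Both U1:82Eb and U12 thus had their summits inside the gene in the pooled list.

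The other 6 had lower pooled ranks or no pooled summit. U6:96Aa, the first gene of the U6 cluster, had a pooled summit of rank 10127 at position -442, counted from the 5′ end with upstream negative. U11 and U7 had pooled ranks of 17032 and 17013, near the end of that list, and U11 lies 325 bp from the protein-coding TSS of Fie. LU had none in the pooled list but ranks of 15211 and 18901 in replicates 2 and 3. U4:38AB was seen in replicate 1 alone, at rank 5112, and U4atac in replicate 2 alone, at rank 15907. U1:82Eb and U6:96Aa lay 4655 and 909 bp from the nearest retained summit, and U6:96Ab, the farthest gene counted as having a retained summit, lay 305 bp from one.

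The remaining 15 genes had no summit within 500 bp in any list. They were 5 of the 6 U2 genes (14B, 34ABa, 34ABc, 38ABa and 38ABb), 5 of the 7 U5 genes (14B, 23D, 34A, 38ABa and 38ABb), U1:95Cb, U1:95Cc, U4:25F, 7SKb and U6atac. In the cluster at 38AB, 5 genes lie within 5807 bp of 2L (19810734 to 19816540), in introns of sick. None of the 5 had a retained summit, and U4:38AB had the only candidate. U1:95Cb and U1:95Cc were 7364 and 5828 bp from a retained summit, and 7SKb, whose best PSEA match has 3 mismatches, was 101391 bp away.

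Copies with nearly the same transcript therefore stood on both sides. U1:95Ca, U1:21D and U1:95Cb have identical transcripts, and U1:95Ca and U1:21D had retained summits while U1:95Cb had none. U2:34ABb and U2:34ABc are also identical, and U2:34ABb alone had a summit. Across a class, transcripts were 98.2% to 100% identical among U1 genes and 98.4% to 100% among U2 genes. They were all identical among U6 genes, 80.9% to 96.1% among U5, 74.3% to 94.4% among U4, and 55.2% between 7SKa and 7SKb. Over the 100 bases before the 5′ end, U1:95Ca and U1:95Cb shared 63, and U2:34ABb and U2:34ABc shared 77.

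Identical copies bear on the reading of these peaks, since a read that fits several copies can be placed at any of them or dropped. How the authors placed such reads is not given in the sources used here. The share of 32-base words found once on the 6 arms was 3.53% in the 201 bases around the U2:34ABb summit, 14.1% for U1:95Ca, 48.8% for U1:21D and 64.7% for U5:63BC. For these the words had up to 6, 5, 5 and 7 copies. It was 90.6% for U4:39B and 100% for 7SKa and U6:96Ac. The 2 summits of highest signal thus lay in the least unique sequence, and those of 7SKa and U6:96Ac in sequence that occurs once.

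Inside the genes, the median share of unique 32-base words was 0% in the 8 genes with a retained summit (range 0% to 100%), 100% in the 9 with candidates only and 24.1% in the 15 with none. With 250 bp on each side included, it was 72.5% to 100% in the 8, 84.4% to 100% in the 9 and 29% to 100% in the 15. The 3 genes below 50% there were U2:34ABc, U2:38ABa and U2:38ABb, and none of them had any summit. Leaving these 3 out, an alternative chosen after seeing the data, 8 of 29 genes (27.6%) had a retained summit. What part copy number has in the calls at U1 and U2 was not tested. Word uniqueness was not counted for tRNA and snoRNA genes, so their shares carry the same unknown placement of reads.

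**Figure D4:**
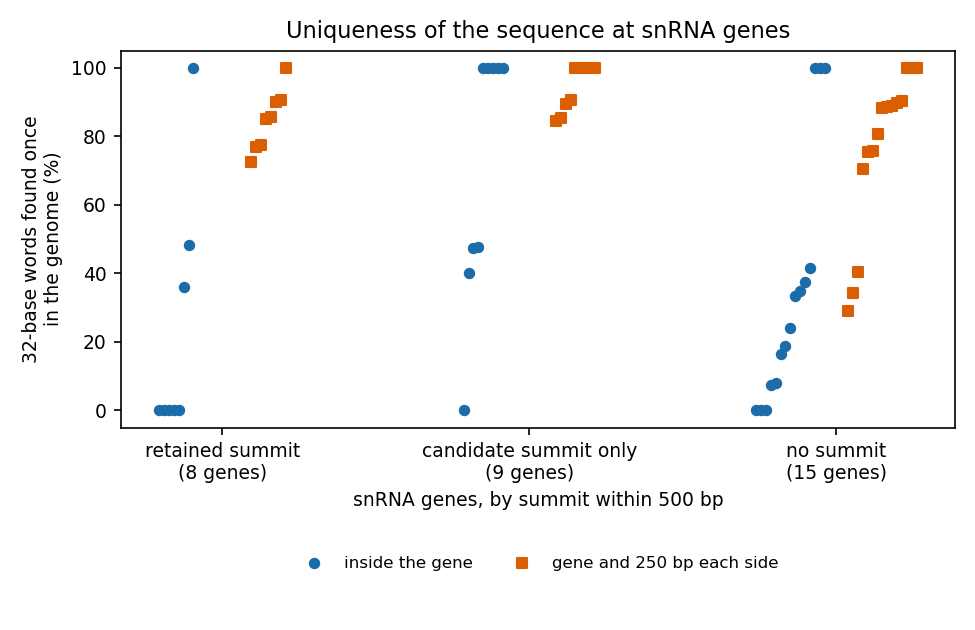
Percent of 32-base words that occur once on the 6 chromosome arms, inside each snRNA gene (circles) and in the gene with 250 bp on each side (squares), by whether a retained summit, a candidate summit only or no summit lay within 500 bp. Points are genes, spread sideways. The 3 squares below 50% are U2 genes without a summit.

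Each replicate was also read by itself, with its best 3123 peaks, so that lists of equal length were compared. A summit lay at 9, 4 and 5 of the 32 snRNA genes in replicates 1, 2 and 3 (28.1%, 12.5% and 15.6%). The mean was 18.8% ± 8.27 (SD, n = 3). For protein-coding genes at the TSS the shares were 14.6%, 16.4% and 16.2%, with a mean of 15.7% ± 0.991. The snRNA share was above the protein-coding share in replicate 1 and below it in the other two. Subtracting the protein-coding share gave 13.5, -3.94 and -0.567 percentage points, a mean of 3.0 ± 9.26 (exact two-sided sign-flip permutation test, p = 1).

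Against tRNA genes (3.79%, 3.1% and 5.52%) the snRNA share was higher by 24.3, 9.4 and 10.1 points, a mean of 14.6 ± 8.43 (SD, n = 3, p = 0.25, exact sign-flip permutation test). Against snoRNA genes (5.2%, 4.46% and 4.83%) it was higher by 22.9, 8.04 and 10.8 points, a mean of 13.9 ± 7.92 (p = 0.25, same exact test). Both differences were positive in 3 of 3 replicates in these lists, and 0.25 is the smallest p that 3 replicates allow. With all candidates they were positive in replicates 1 and 2 only. The tRNA difference was then 4.78, 21.3 and -9.35 points (mean 5.58 ± 15.3, SD, n = 3, exact p = 0.75), and the snoRNA difference 0.627, 17.2 and -0.86 points (mean 5.66 ± 10, exact p = 0.75). Against all other genes at the TSS the mean in the lists of best peaks was 5.61 ± 8.96 points (SD, n = 3, exact p = 0.5). That difference was -0.233, 6.08 and -4 points with all candidates of the replicates, a mean of 0.617 ± 5.1 (SD, n = 3). Over the 8 differences computed, the Benjamini-Hochberg adjusted p of each permutation test was 1.

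**Figure D5:**
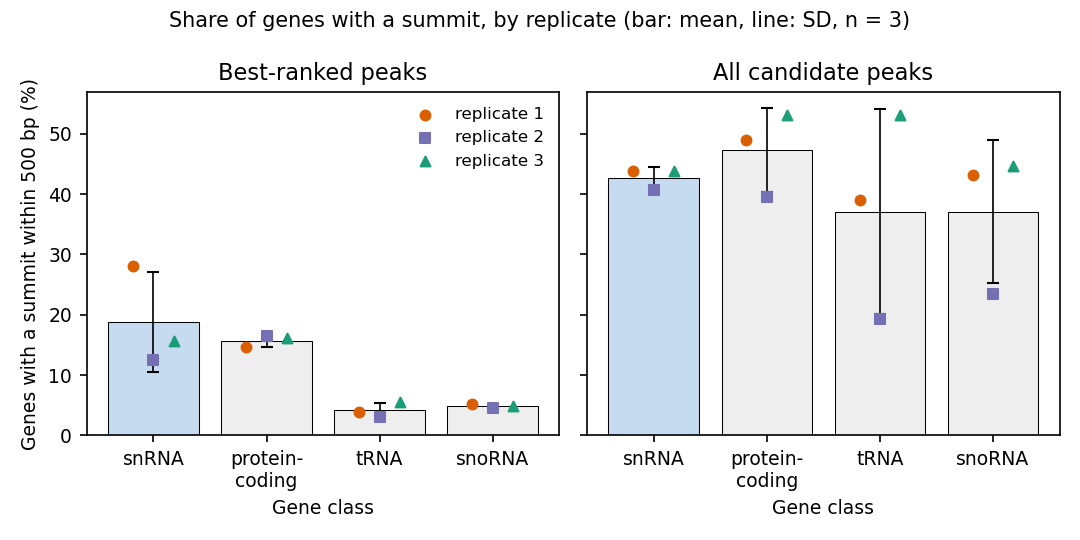
Percent of snRNA, protein-coding, tRNA and snoRNA genes with a summit within 500 bp, among the best 3123 peaks (left) and all candidates (right) of each replicate; points are replicates, bars are means and lines the SD (n = 3). In the best peaks the snRNA mean of 18.8% stands beside 15.7% for protein-coding genes and 4.14% for tRNA genes. Among all candidates the means lie between 37.1% and 47.3%.

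Among all candidates, which include background, the snRNA shares were 43.8%, 40.6% and 43.8% in replicates 1, 2 and 3 (mean 42.7% ± 1.8, SD, n = 3), against 47.3% ± 6.92 for protein-coding genes and 37.1% for both tRNA genes (± 17) and snoRNA genes (± 11.8). In the pooled list 14 of 32 snRNA genes (43.8%) had a summit, against 44.0% of protein-coding, 37.9% of tRNA, 30.9% of snoRNA and 38.7% of all other genes. The pooled snRNA share was thus close to the protein-coding background, and the interval for 14 of 32 genes, 26.4% to 62.3%, contains all 4 of the other shares.

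Support differed between the genes. U2:34ABb, U1:95Ca and U4:39B were among the best 3123 peaks of 3 replicates, and 7SKa, U1:21D and U5:63BC of 2. U1:82Eb, U6:96Ab and U6:96Ac were there in 1, and the other 23 genes in 0. Without replicate 1, requiring a retained peak to overlap a best-ranked peak in both other replicates, 3 snRNA genes were left (9.38%), against 12.3% of protein-coding genes and 1.72% of tRNA genes. Without replicate 2 there were 5 (15.6%, against 11% and 2.07%), and without replicate 3 there were 4 (12.5%, against 11.2% and 2.41%). The count was lowest without replicate 1, and the snRNA share then lay below the protein-coding share. U1:95Ca, U2:34ABb and U4:39B were kept in each case. The retained list itself came from the pooled reads of all 3 replicates, so these settings filter it and do not take a replicate's reads out. They left 2173, 2094 and 2136 retained peaks without replicates 1, 2 and 3.

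The genes for the proteins that make and carry snRNAs were read at their TSS as the other genes of the pathway. Retained summits were found no more than 500 bp from the TSS of 18 of 72 (25%, Clopper-Pearson 15.5% to 36.6%), against 16.2% of all protein-coding genes, a share inside that interval. At 200 bp it was 9 of 72 (12.5%), against 11.9%. Among the best 3123 peaks of replicates 1, 2 and 3 there were 14, 18 and 17 (19.4%, 25% and 23.6%), against 14.6%, 16.4% and 16.2% of all protein-coding genes.

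The Integrator, which cleaves the 3′ ends of polymerase II snRNAs, had 6 of 14 genes (42.9%, interval 17.7% to 71.1%), against 16.2% of all protein-coding genes. At 200 bp it had 4 of 14 (28.6%), against 11.9%. Of the pathway groups, all small, it alone had an interval at 500 bp that left out the background. Whether the promoter of another gene shares these summits was not examined. IntS6 had signal 336.4, IntS10 256.6, IntS9 244.8 and IntS11, the endonuclease, 227.3, and asun and IntS1 had no retained summit. IntS6, IntS9 and IntS10 were among the best 3123 peaks of all 3 replicates and IntS11 of replicates 1 and 2. The remaining Integrator genes with a retained summit were there in replicate 2 alone. SNAPc, the PSEA-binding complex, had 1 of 3 genes and the Little elongation complex 1 of 3, and their interval of 0.84% to 90.6% contains the 16.2% background. Pbp95 of SNAPc had a signal of 174.3, 491 bp from its TSS and so barely inside the distance used, and Pbp45 and Pbp49 had none. In the Little elongation complex, Ice1 (137.4) had one and Ice2 and Su(Tpl) had none.

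Of the 7SK particle, 2 of 3 genes had a retained summit, with an interval of 9.43% to 99.2% that contains the 16.2% background, as do those of the groups that follow. These were bin3 (261.3), the cap methyltransferase of 7SK, and Larp7 (144.6), which binds its 3′ end, while Hexim, the P-TEFb inhibitor, had none. Among 19 genes for particle-specific proteins 5 had one (26.3%, 9.15% to 51.2%), with U4-U6-60K at 232.8, Sf3b6 at 208.3, Sf3b1 at 148.6 and Sf3a1 at 135.9, and Brr2 and CG12320 had none. The Sm ring had 1 of 7 (14.3%, 0.361% to 57.9%), which was SNRPG at 194.6 and not SmB or SmD1. The LSm proteins had 1 of 11 (9.09%, 0.23% to 41.3%), which was CG6610 at 128.0 and not CG10418 or CG17768. Of 11 genes for assembly and transport, with the same share and interval, icln had one (159.8) and csul and Gem2 did not, and coil, the Cajal body protein, had none. No group was tested against another or against the background.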

How the data were processed

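The authors deposited peak lists on 2 builds, dm6 and dm3, and the dm6 lists were used: 1 candidate list per replicate, 1 for the pooled replicates and the list past the IDR threshold. Per the labels, candidates were called against a control alignment. Not given in the sources used here are the IDR threshold, the peak caller, the aligner and the treatment of reads that match several copies. Each peak's signal (column 7) was set by the authors' peak caller, and the deposited score and p-value columns hold a constant and were not used. Signal was used only to rank and describe peaks within a list, and ranks are not comparable between lists of different lengths. Read depth is unknown.

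Genes came from Ensembl release 115 of the release 6 assembly without transposable element insertions, and sequences from the RefSeq genome of that assembly. Distances ran from the summit to the snRNA, tRNA or snoRNA gene, and to the TSS for other genes. Positions count from the 5′ base as 0. Word uniqueness was counted on both strands. Copies were aligned globally. Of 80 listed pathway symbols 72 genes were matched, 8 of them under another name. Python 3.11.15, numpy 2.4.6, pandas 2.3.3, scipy 1.17.1, biopython 1.88 and matplotlib 3.10.9 were used, and the distance and word searches were checked on simulated data.

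The members and lists were chosen with earlier results of these data known. Every snRNA gene is named, and of each pathway group up to 4 members with a retained summit by signal and up to 2 without by alphabet. Alternatives were distances of 200 and 1000 bp, peak midpoints, distance to the 5′ end, peak overlap, joined loci, other list lengths, 1 replicate left out, shorter promoter windows and words with 1 mismatch, plus leaving out genes with few unique words, added after seeing the data.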

Additional observations from a re-analysis of the deposited data

How the results depend on the processing

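The count of 8 snRNA genes with a retained summit was 7 to 9 with distances of 200 and 1000 bp, peak midpoints, the 5′ end alone, peak overlap or joined loci. Midpoints of the 7 peaks nearly coincided with their summits, at 79 and 78 bases downstream for U1:95Ca. The midpoint setting could therefore hardly change the count. The count was 4 among the 1561 retained peaks of highest signal (12.5%, against 8.92% of protein-coding genes), and 3 to 5 with 1 replicate left out. The number sharing a protein-coding promoter was 0, and 2 at 1000 bp. Pathway protein genes with a retained summit were 18, against 9 at 200 bp, 8 among those 1561 peaks and 9 to 10 with 1 replicate left out. The mean number of snRNA genes per replicate was 6, and 13.7 with full candidate lists and 3.33 with lists of 1561 peaks. The median summit position was 78 bases downstream, and 11 with replicate 1 alone and 38 with replicate 3 alone. The snRNA minus protein-coding share had a mean of 3.0 points, but -4.55 with full candidate lists, and -2.26 to 6.47 with 1 replicate left out, the lowest without replicate 1. With full candidate lists the differences from tRNA and snoRNA genes were 5.58 and 5.66 points, against 14.6 and 13.9. TATAAA was in 15 snRNA promoters, and in 5 with the window of 100 bases. Stricter settings keep fewer peaks by construction; for the other changes the cause was not tested. No paired analysis was possible because there is only 1 group. With 32 genes, the 25% share has an interval of 11.5% to 43.4%, and depth is unknown.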
